A study of Homo sapiens with 12 samples.

Results

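The cytosolic heat shock chaperones described here are 10 gene names: HSPA8 and its processed pseudogene HSPA8P5, HSPA1A, HSPA1B, HSPA4, HSPH1, HSP90AA1, HSP90AB1, DNAJA1 and DNAJB1. They were chosen by name, with earlier results of these data known. They are 10 of 56537 gene names in the table, and all 10 passed the filter on low values that 17091 gene names passed. Every transcript carrying one of these names was taken, 101 in all, and the FPKM (fragments scaled by transcript length and library size) was summed per name in each library. HCT116, an established human colorectal cancer cell line, was kept at 21% oxygen (0 h) or placed in 1% O2 for 1, 2 or 24 h, with 3 libraries per time point and 12 in all. No other treatment and no genetic change separated the groups, and all cells were of the 1 line. Hypoxia began 24 h after the cells were plated, per the labels, and whether cells of 0 h and of 24 h were harvested equally long after plating is not given in the sources used here, so that at 24 h hypoxia and the age of the culture cannot be told apart. The question asked of these genes is how their transcript level moved early (1 and 2 h) and late (24 h) in hypoxia.

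HSP70 proteins bind unfolded stretches of client proteins and release them in a cycle driven by ATP. J-domain proteins such as DNAJA1 and DNAJB1 bring clients and stimulate ATP hydrolysis, and the HSP110 proteins HSPA4 and HSPH1 exchange the nucleotide that ends the cycle. HSP90 proteins take over partly folded clients, many of them kinases and hormone receptors. HSPA8 and HSP90AB1 are made constitutively, whereas HSPA1A, HSPA1B, HSP90AA1, HSPH1 and DNAJB1 are classical targets of the heat shock factor HSF1, which binds inverted repeats of a short heat shock element in their promoters.

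The stretches before the annotated starts are shown because they hold the letters of the heat shock element in some members but not in others. Whether these letters bear on any level reported here was not tested. Each is 250 bases, 5′ to 3′ on the strand of the gene, read from GRCh37 before the start that GENCODE release 44 gives for the leading transcript, the one with the highest FPKM. Capitals mark matches to GAANNTTC or TTCNNGAA, each of which reads the same on both strands. HSPA1A (chr6:31783070-31783319, plus strand) and HSPA1B (chr6:31795265-31795514, plus strand) lie side by side on chromosome 6. HSPA8 is given before its second start, that of ENST00000534624 (chr11:122932845-122933094, minus strand), and before the start of its leading transcript ENST00000227378 (chr11:122932041-122932290, minus strand), which lies downstream of it. HSP90AA1 (chr14:102553382-102553631), HSPH1 (chr13:31736042-31736291) and DNAJB1 (chr19:14629210-14629459) are on the minus strand.
HSPA1A: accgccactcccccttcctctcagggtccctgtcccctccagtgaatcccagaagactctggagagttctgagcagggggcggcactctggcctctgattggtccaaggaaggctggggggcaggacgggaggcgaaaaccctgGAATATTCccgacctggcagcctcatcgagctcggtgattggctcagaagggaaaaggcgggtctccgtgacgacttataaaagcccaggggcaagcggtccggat
HSPA1B: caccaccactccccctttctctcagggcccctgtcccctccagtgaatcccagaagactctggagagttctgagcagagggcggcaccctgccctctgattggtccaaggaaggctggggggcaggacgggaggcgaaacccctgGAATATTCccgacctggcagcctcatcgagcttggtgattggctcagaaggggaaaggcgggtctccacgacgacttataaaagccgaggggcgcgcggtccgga
HSPA8, second start: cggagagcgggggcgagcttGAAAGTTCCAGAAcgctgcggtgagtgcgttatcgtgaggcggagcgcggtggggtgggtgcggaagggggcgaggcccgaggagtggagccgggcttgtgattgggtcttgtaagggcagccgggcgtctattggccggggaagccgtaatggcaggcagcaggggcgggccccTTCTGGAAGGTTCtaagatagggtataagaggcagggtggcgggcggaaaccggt
HSPA8, leading transcript: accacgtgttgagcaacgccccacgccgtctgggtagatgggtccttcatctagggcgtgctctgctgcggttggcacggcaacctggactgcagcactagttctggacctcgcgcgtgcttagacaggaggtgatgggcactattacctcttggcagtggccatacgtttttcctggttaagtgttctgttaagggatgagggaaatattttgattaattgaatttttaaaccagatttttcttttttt
HSP90AA1: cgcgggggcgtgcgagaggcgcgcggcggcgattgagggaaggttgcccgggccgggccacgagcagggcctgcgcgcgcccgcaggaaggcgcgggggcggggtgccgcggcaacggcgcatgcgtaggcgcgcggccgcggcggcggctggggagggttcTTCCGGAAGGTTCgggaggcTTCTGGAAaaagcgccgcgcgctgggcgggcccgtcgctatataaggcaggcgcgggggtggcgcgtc
HSPH1: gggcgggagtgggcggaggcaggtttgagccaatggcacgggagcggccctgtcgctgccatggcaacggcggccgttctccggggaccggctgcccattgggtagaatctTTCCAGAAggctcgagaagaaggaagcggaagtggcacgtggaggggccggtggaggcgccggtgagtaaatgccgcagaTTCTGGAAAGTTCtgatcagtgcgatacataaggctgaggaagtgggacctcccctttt
DNAJB1: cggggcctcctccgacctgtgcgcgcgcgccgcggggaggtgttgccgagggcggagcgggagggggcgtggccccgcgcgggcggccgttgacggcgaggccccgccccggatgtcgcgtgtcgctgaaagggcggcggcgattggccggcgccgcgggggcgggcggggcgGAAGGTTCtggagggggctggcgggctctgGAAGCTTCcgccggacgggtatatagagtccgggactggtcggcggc
Counted from 250 bases before to 50 after the start, 6 of the 10 members held either motif (HSPA1A, HSPA1B, HSPH1, HSP90AA1, DNAJA1 and DNAJB1), as did 8.93% of the 10425 gene names whose leading transcript gave such a window. Outside the members, only names with a protein-coding leading transcript were counted. HSPA8, HSPA8P5, HSPA4 and HSP90AB1 held neither at the start of the leading transcript. At its second start HSPA8 held 4 matches in 2 overlapping pairs, the pair nearer to the start beginning at position -55. A second start was searched for HSPA8 only. The single matches of HSPA1A and HSPA1B began at positions -106 and -105. In HSPH1 and HSP90AA1 a TTCNNGAA match overlaps a GAANNTTC match, at positions -59 and -54 and at -88 and -83. ACGTG on either strand, a form of the core of the hypoxia response element, occurred in 5 of the 10 windows and in 26.6% of all windows. Other forms of that core, such as GCGTG, were not counted. A match describes letters and is not a measured binding site, and annotated starts can differ from those used in these cells.

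**Figure D1:**
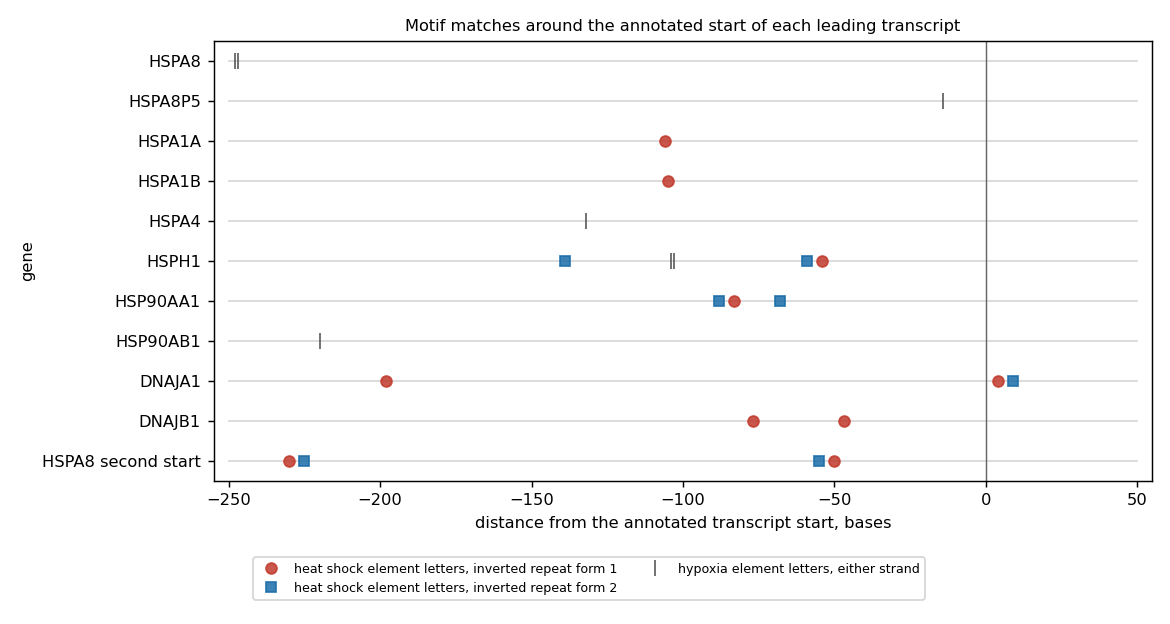
Position of each motif match (x axis, bases from the annotated start of the transcript, which is at 0) in the window of each gene (y axis), with circles for GAANNTTC, squares for TTCNNGAA and bars for ACGTG on either strand, which marks the palindrome CACGTG with 2 bars. Heat shock element letters occurred in 6 of the 10 leading windows and at the second start of HSPA8.

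All 10 genes fell at 24 h, to between 18.8% and 50.1% of their mean at 0 h, and none of them passed the test at 1 h. The HSP70 genes and DNAJB1 were lower than at 0 h in every library from the first hour, whereas HSP90AA1, HSPA4 and HSPH1 differed from 0 h by less than the spread between libraries until after 2 h in the values as deposited. With TPM over all transcripts, which moved the median over all gene names to -0.88 at 2 h, HSPA4 and HSPH1 fell at 2 h (-1.15 and -1.27, limma adjusted p = 0.0365 and 0.0297) and HSP90AA1 was at -1.05 (0.0651). Between same-numbered libraries of 0 and 2 h, as deposited, HSPA4 and HSPH1 were lower at 2 h in 3 of 3 pairs and HSP90AA1 in 1 of 3, and with the replicate number entered as a block none of them passed (limma adjusted p = 0.615, 0.456 and 0.848). Together the 10 names summed to 9024 ± 686 FPKM at 0 h, 7896 ± 594 at 1 h, 7042 ± 822 at 2 h and then 3479 ± 300.1 at 24 h (SD, n = 3 at each time point). Differences were tested on log2(FPKM + 0.5) in 1 limma fit to the 12 libraries, adjusted over the 17091 gene names, and "fell" or "rose" is used only at an adjusted p under 0.05. A fold change on this scale understates the change of low values. A stricter call, the thresholds of the study, also asks for an absolute log2 fold change over 1 and an adjusted p under 0.01.

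**Figure D2:**
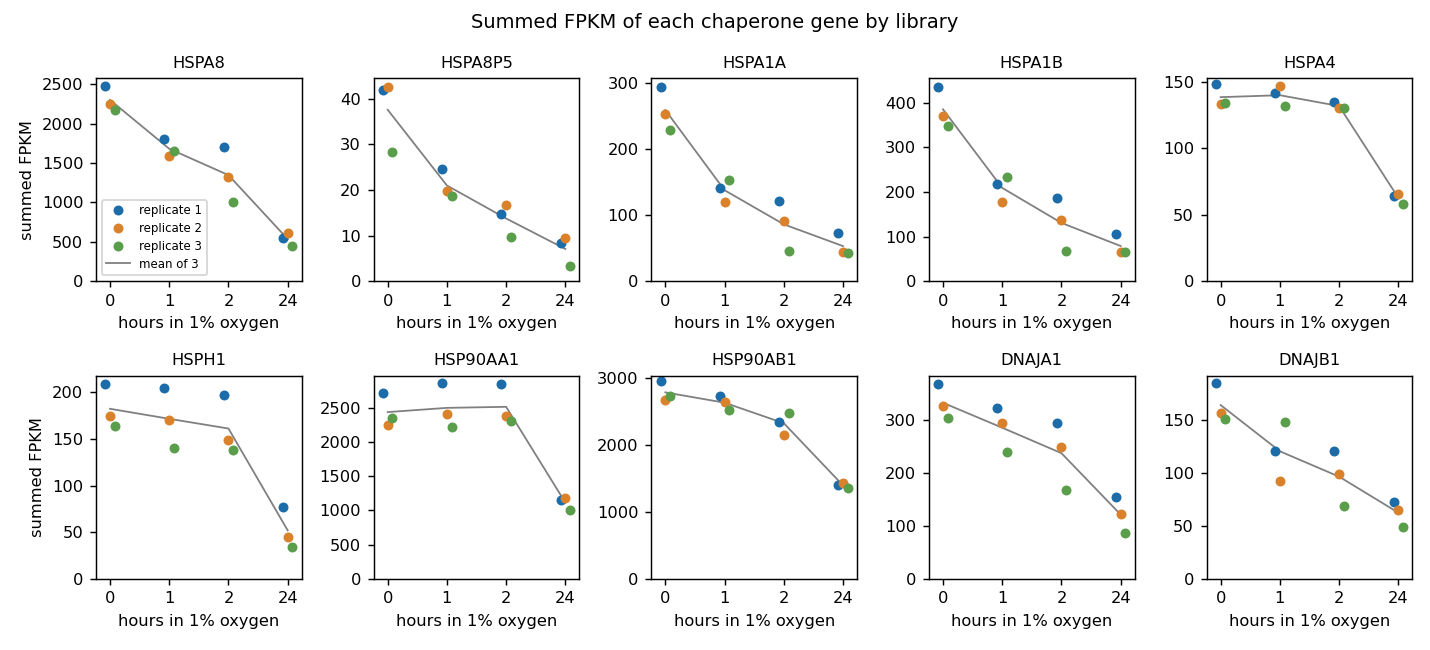
Summed FPKM (y axis, from 0) of each of the 10 genes in each library against hours in 1% oxygen (x axis, time points evenly spaced), with 1 colour per replicate number and a line through the means of 3 libraries. All 24 h libraries lie below all 0 h libraries in all 10 genes, and HSPA8, HSPA8P5, HSPA1A, HSPA1B and DNAJB1 do so already at 1 h.

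At 1 h the counts were 0 of 10 members against 0% of all gene names lower, and at 2 h 2 of 10 against 0.0936%. The 2 were HSPA1A and HSPA1B, near-identical copies between which the split of reads is uncertain. All counts of members take these copies, and HSPA8 and its pseudogene HSPA8P5, as separate names, although they may not be independent. The 2 h count depends on the processing. It was 9 of 10 against 52.8% with TPM over all transcripts, 4 of 10 against 0.696% with the replicate block, 0 of 10 with no filter on low values, when summed by locus, with the 6 libraries of the comparison alone or without the variance trend, and 0 of 10 in 9 of 12 cases that left out 1 library. Libraries that did not overlap with 0 h and lay below it were found in 5 of 10 members at 1 h (7.27% of all gene names) and in 7 of 10 at 2 h (12.9%). At 24 h, 10 of 10 members fell, against 30.0% of all gene names, and 9 of 10 passed the stricter call, against 9.40%. All 10 were lower without overlap at 24 h, against 32.4%. The median log2 fold change of the members was -0.34 at 1 h, -0.66 at 2 h and then -1.68 at 24 h, where the medians over all 17091 names were -0.01, -0.01 and -0.05. At 1 h 1 gene name in all passed limma's adjusted p. An unadjusted p under 0.05 was found for 780 of 17091 names, no more than that threshold would pass with no change in any gene. HSPA8, HSPA8P5, HSPA1A and HSPA1B were among them, each at a limma adjusted p of 0.996.

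HSPA8 encodes HSC70, the constitutive HSP70 of the cytosol, and lies on the minus strand of chromosome 11 (ENSG00000109971, GRCh37, chr11:122928197-122933938). Its summed FPKM was 2475, 2255 and 2179 in the 3 libraries at 0 h, 1802, 1590.0 and 1654 at 1 h, 1706, 1327 and 1009 at 2 h and then 548, 613 and 442 at 24 h. The 1 h and 2 h libraries all lay below the 0 h libraries and above the 24 h libraries, so that the groups at 0, 1 and 24 h did not overlap. The means were 2303 ± 154, 1682 ± 109, 1347 ± 349 and 534 ± 86.0 (SD, n = 3). The log2 fold change was -0.45 at 1 h (SE 0.17, limma adjusted p = 0.996), -0.80 at 2 h (adjusted p = 0.0855) and -2.12 at 24 h (adjusted p = 1.97e-06). At 24 h HSPA8 was 4.34-fold lower than at 0 h. Between 0 and 2 h, same-numbered libraries shared their deviations. With that number as a block in the fit to all 12 libraries, HSPA8 passed at 2 h (limma adjusted p = 0.033, over all alternatives 0.01 to 0.31). The block was chosen from these data and is not a paired test of 0 and 2 h alone.

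HSPA8P5 is a processed pseudogene of HSPA8, an intronless copy on chromosome 12 (ENSG00000256356, chr12:4206617-4208685, plus strand) annotated with a single transcript. The summed FPKM was 42.0, 42.5 and 28.3 at 0 h, 24.6, 19.7 and 18.6 at 1 h, 14.8, 16.8 and 9.61 at 2 h and then 8.44, 9.42 and 3.30 at 24 h. No 2 successive time points overlapped. Its level was 1.63 ± 0.30% of the HSPA8 level at 0 h and 1.27 ± 0.458% at 24 h. The log2 fold change at 24 h was -2.43 (SE 0.32, limma adjusted p = 5.96e-05), with -1.43 at 2 h (adjusted p = 0.0944, 0.013 with the replicate block, over all alternatives 8e-05 to 0.34). Over 1926 aligned bases the pseudogene and the leading HSPA8 transcript were 94.2% identical, with a longest identical run of 64 bases, shorter than the 100-base reads. Reads of the parent gene that were placed on the copy cannot be told apart from transcription of the copy in these values.

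Other HSPA8 pseudogenes, HSPA8P9, HSPA8P1 and HSPA8P8, were the gene names whose levels most resembled HSPA8P5 over the 12 libraries (Pearson's r = 0.997, 0.993 and 0.986, a description over 10261 gene names with a mean FPKM of at least 5). Their log2 fold changes at 24 h were -2.26, -2.36 and -2.24. For HSPA8 itself the 3 closest names were MRM1, TIMM10B and the pseudogene HSPA8P7 (r = 0.988, 0.987 and 0.983). The 12 libraries share 1 time course, so a high r is common among genes that fell at 24 h.

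HSPA1A and HSPA1B encode HSP72, the stress-inducible HSP70, from neighbouring intronless genes on chromosome 6 (ENSG00000204389, chr6:31783320-31785723, and ENSG00000204388, chr6:31795515-31798031, both on the plus strand). For HSPA1A the summed FPKM was 294, 253 and 229 at 0 h, 141, 119 and 152 at 1 h, 121, 91.2 and 45.1 at 2 h and then 72.5, 43.9 and 42.3 at 24 h. For HSPA1B it was 437, 372 and 349 at 0 h, 218, 177 and 233 at 1 h, 187, 136 and 68.5 at 2 h and then 106, 65.5 and 65.1 at 24 h. In both genes the 1 h, 2 h and 24 h libraries all lay below those at 0 h, and 2 h and 24 h overlapped. Both genes stood at 53.1% and 54.3% of their 0 h means at 1 h and 33.2% and 33.9% at 2 h, and at 2 h replicate 3 was the lowest of the 3 libraries in each.

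At 2 h both fell, with log2 fold changes of -1.69 for HSPA1A (SE 0.30, limma adjusted p = 0.0424) and -1.67 for HSPA1B (SE 0.30, adjusted p = 0.0438). These 2 calls are near the threshold, and leaving out 1 library ended both in 9 of 12 cases, the exceptions being replicate 1 at 2 h and replicates 1 and 3 at 24 h (highest adjusted p 0.2 and 0.21, without replicate 1 at 0 h). With the replicate block limma's adjusted p was 0.017 and 0.018 (over all alternatives 2.6e-05 to 0.2 and 3.9e-05 to 0.21). At 24 h the log2 fold change was -2.32 for both (SE 0.30 and 0.30, adjusted p = 4.93e-05 and 4.74e-05), 4.98-fold lower than at 0 h. From 2 to 24 h the further difference was -0.63 and -0.65, which did not pass (adjusted p = 0.103 and 0.0898). Without replicate 3 at 2 h both passed, at -1.029 and -1.054 (limma adjusted p = 0.0029 and 0.0023), and without replicate 1 at 24 h at -0.873 and -0.879 (0.038 and 0.04, over all alternatives 0.0029 to 0.69 and 0.0023 to 0.67).

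The leading transcripts of HSPA1A and HSPA1B, ENST00000375651 and ENST00000375650, were 98.7% identical over 2146 aligned bases with an identical run of 1715 bases, and 72.4% of the 100-base words of HSPA1A also occur in HSPA1B. Cufflinks placed both in 1 locus, so that the split of reads between the 2 genes is uncertain. HSPA1A held 40.1 ± 0.445% of the summed FPKM of the pair at 0 h and 40.1 ± 0.656% at 24 h (SD, n = 3, two-sided exact permutation test, p = 0.9, smallest possible p 0.1), and the 12 libraries gave r = 1.00 between them. Their 12 copies on alternative haplotypes were listed at 0 in every library. DNAJB1 was among the 3 closest names of both (r = 0.962 and 0.964), and the third was C17orf80 (r = 0.962 and 0.961). Other HSP70 genes that respond to strong stress, HSPA6 and HSPA7, and the testis gene HSPA1L did not pass the filter on low values.

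HSPA4 encodes an HSP110 protein, a nucleotide exchange factor for HSP70 (ENSG00000170606, chr5:132387705-132442141, plus strand). The summed FPKM was 148, 134 and 134 at 0 h, 142, 147 and 132 at 1 h, 135, 130.4 and 130.4 at 2 h and then 64.4, 65.8 and 58.0 at 24 h. The first 3 time points overlapped and the 24 h libraries lay apart below them. The log2 fold change was 0.02 at 1 h (limma adjusted p = 0.997), -0.07 at 2 h (adjusted p = 0.729) and -1.14 at 24 h (SE 0.084, adjusted p = 1.01e-06), 2.2-fold lower than at 0 h. The names most like HSPA4 were DNAJC9, SRSF3 and TIMM23 (r = 0.997, 0.996 and 0.996), of which DNAJC9 is a J-domain protein that serves histones.

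HSPH1 encodes HSP105, the other HSP110 protein here and a heat shock target (ENSG00000120694, chr13:31709110-31736525, minus strand). The summed FPKM was 209, 174 and 164 at 0 h, 204, 170.1 and 140.2 at 1 h, 197, 149 and 138 at 2 h and then 76.6, 45.0 and 33.9 at 24 h. Replicate 1 was the highest library at every time point, and only the 24 h group lay entirely below the 0 h libraries. The log2 fold change was -0.10 at 1 h (SE 0.25, limma adjusted p = 0.996), -0.19 at 2 h (adjusted p = 0.76) and -1.88 at 24 h (SE 0.25, adjusted p = 5.9e-05), 3.68-fold lower. Relative to HSPA4 in the same library, HSPH1 stood at 1.31 ± 0.0925 at 0 h and 0.820 ± 0.324 at 24 h, where replicate 1 was at 1.19 and the others at 0.684 and 0.585. The closest names were USP39, RAB5C and CDC20 (r = 0.996, 0.993 and 0.992).

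HSP90AA1 and HSP90AB1 encode the inducible and the constitutive HSP90 of the cytosol (ENSG00000080824, chr14:102547079-102606036, minus strand, and ENSG00000096384, chr6:44213903-44221625, plus strand). HSP90AA1 was at 2712, 2252 and 2347 FPKM at 0 h, 2869, 2407 and 2220.4 at 1 h, 2854, 2378 and 2310.0 at 2 h and then 1159, 1181 and 1001 at 24 h. HSP90AB1 was at 2947, 2672 and 2734 at 0 h, 2728, 2645 and 2517 at 1 h, 2346, 2145 and 2481 at 2 h and then 1403, 1429 and 1351 at 24 h. HSP90AA1 overlapped between 0, 1 and 2 h, whereas the 2 h libraries of HSP90AB1 all lay below 0 h. HSP90AA1 had log2 fold changes of 0.03 at 1 h, 0.04 at 2 h and then -1.13 at 24 h (SE 0.14 throughout, limma adjusted p = 0.996, 0.914 and 2.89e-05).

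HSP90AB1 had -0.08, -0.26 and -0.996 on the same scale (SE 0.10, limma adjusted p = 0.996, 0.261 and 8.25e-06). Its value at 24 h lies just short of the fold threshold of the study, which made it the 1 member of 10 outside the stricter call, and both kinds of TPM scaling put it past that threshold. HSP90AA1 at -1.13 and HSPA4 at -1.14 were the members just past it. The 2 HSP90 genes are 77.5% identical over 2146 aligned bases with no identical run over 23 bases. Of the 100-base words of HSP90AA1 2.24% also occur in HSP90AA2P, and 1.67% of those of HSP90AB1 in HSP90AB3P, among the chaperone names searched. The ratio of HSP90AA1 to HSP90AB1 within a library was 0.874 ± 0.0408 at 0 h, 1.09 ± 0.144 at 2 h and then 0.798 ± 0.0492 at 24 h (SD, n = 3). The names most like HSP90AA1 were TRMT10C, RPF1 and CYCS (r = 0.996, 0.995 and 0.994), and those most like HSP90AB1 were ANAPC7, COMMD9 and MORC4 (r = 0.990, 0.987 and 0.986).

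DNAJA1 and DNAJB1 encode J-domain partners of HSP70, DNAJB1 being HSP40 (ENSG00000086061, chr9:33025271-33039905, plus strand, and ENSG00000132002, chr19:14625581-14671203, minus strand). DNAJA1 was at 369, 326 and 303 FPKM at 0 h, 322, 295 and 239 at 1 h, 294, 249 and 168 at 2 h and then 155, 122 and 86.6 at 24 h. DNAJB1 was at 185, 157 and 151 at 0 h, 121, 92.5 and 148 at 1 h, 121, 99.4 and 69.2 at 2 h and then 72.9, 65.4 and 49.1 at 24 h. DNAJB1 was lower than at 0 h in all 1 h libraries, by little in replicate 3, and in DNAJA1 the groups first came apart at 2 h. The log2 fold changes of DNAJA1 were -0.23 at 1 h, -0.52 at 2 h and then -1.49 at 24 h (SE 0.23, limma adjusted p = 0.996, 0.31 and 0.000153). Those of DNAJB1 were -0.47, -0.79 and -1.40 (SE 0.22, limma adjusted p = 0.996, 0.149 and 0.000188). The names most like DNAJB1 were HSPA1B and HSPA1A, followed by MFSD5 (r = 0.964, 0.962 and 0.953). For DNAJA1 they were EIF3G, POP7 and RP11-438N16.1 (r = 0.990, 0.986 and 0.986).

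**Figure D3:**
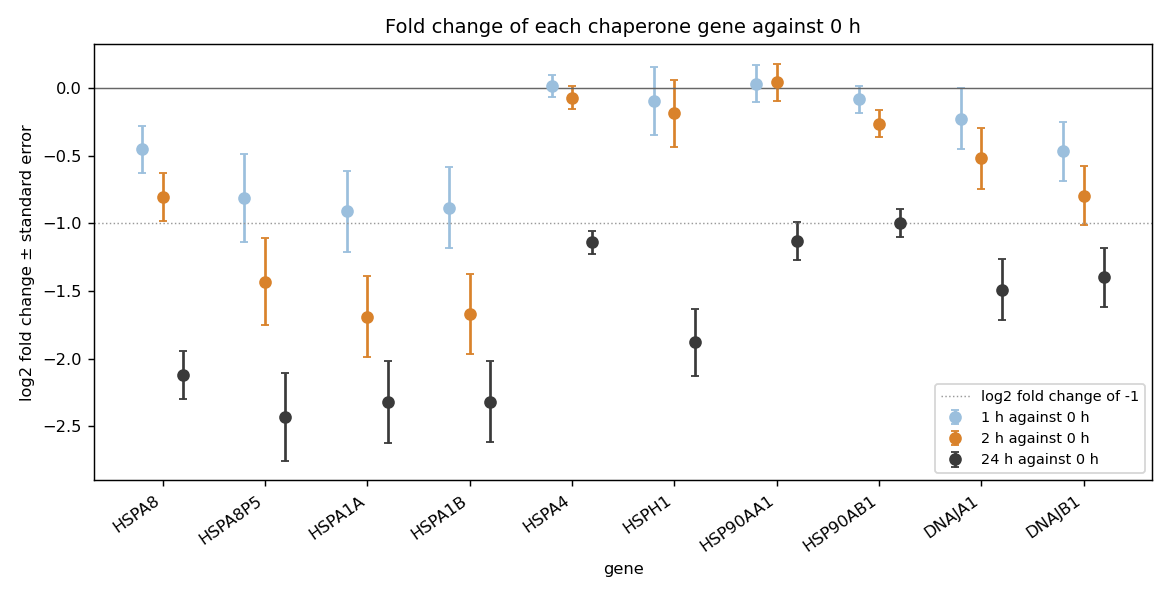
Log2 fold change against 0 h (y axis, bars give 1 standard error from limma) of the 10 genes (x axis) at 1, 2 and 24 h, with a dotted line at -1. At 24 h the values run from -2.43 (HSPA8P5) to -0.996 (HSP90AB1), and at 2 h those of HSPA4, HSPH1 and HSP90AA1 lie between -0.19 and 0.04 in the values as deposited, and between -1.27 and -1.05 with TPM over all transcripts.

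The genes reached different shares of their 24 h difference by 2 h. On the log2 scale HSPA1A and HSPA1B stood at 73.0% and 72.0% of it, HSPA8P5 at 59.0%, DNAJB1 at 56.7%, HSPA8 at 38.0%, DNAJA1 at 34.9% and HSP90AB1 at 26.3%. HSPH1 stood at 9.97%, HSPA4 at 6.13% and HSP90AA1 at -3.81%, the negative sign marking a value above 0 h. With TPM over all transcripts the shares ran from 46.9% (HSPH1), 52.5% (HSP90AA1) and 57.9% (HSPA4) to 86.6% (HSPA1B) and 87.4% (HSPA1A). The sign of HSP90AA1 and the width of the range thus depend on whether this TPM is applied. These shares are a description, and the difference between genes was not tested. Between 2 and 24 h the fall was tested directly, and 8 of 10 members fell (27.0% of all gene names), all but HSPA1A and HSPA1B. With TPM over all transcripts 7 of these 8 calls were lost and HSPH1 alone passed (limma adjusted p = 0.036, the other 7 between 0.18 and 0.7). The differences stayed negative in all 10 members on that scale, at -1.44 for HSPH1, -1.09 for HSPA8, -0.95 for HSP90AA1, -0.84 for HSPA4, -0.74 for DNAJA1, -0.64 for HSPA8P5, -0.51 for HSP90AB1 and -0.38 for DNAJB1, and the median member was at -0.813 relative to the median of all gene names, against -0.954 as deposited. The stricter call over the same step took in HSPA8, HSPA4, HSPH1 and HSP90AA1, 4 of 10 against 7.21% of all gene names. Without replicate 3 at 2 h it took in 7 of 10, against 1415 of 17091 gene names called lower. The calls of DNAJB1 (adjusted p = 0.0353) and HSPA8P5 (adjusted p = 0.0221) between 2 and 24 h were the weakest of the 8 and were lost without replicate 1 or 2 at 2 h (0.067 to 0.15), or without replicate 3 at 24 h (0.13 and 0.068), and DNAJB1 also without replicate 2 at 24 h (0.057).

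Ratios within a library do not depend on how libraries are scaled to each other, and were chosen after the levels had been seen. HSPA8 relative to HSP90AA1 was 0.913, 1.00 and 0.928 at 0 h, 0.628, 0.661 and 0.745 at 1 h, 0.598, 0.558 and 0.437 at 2 h and then 0.473, 0.519 and 0.442 at 24 h. This ratio was lower than at 0 h in every hypoxic library, and 2 h and 24 h overlapped. HSPA1A plus HSPA1B relative to HSP90AA1 went from 0.264 ± 0.0160 at 0 h to 0.141 ± 0.0287 at 1 h, 0.0843 ± 0.0310 at 2 h and then 0.118 ± 0.0319 at 24 h (SD, n = 3), again with every hypoxic library below 0 h. DNAJB1 relative to HSP90AA1 was 0.0673 ± 0.00273 at 0 h, 0.0380 ± 0.00703 at 2 h and then 0.0558 ± 0.00696 at 24 h, with 1 library at 1 h, replicate 3, inside the range of 0 h. HSPA1A plus HSPA1B relative to HSPA8 was 0.279 ± 0.0150 at 0 h, 0.155 ± 0.0369 at 2 h and then 0.249 ± 0.0735 at 24 h, and the 24 h libraries, between 0.179 and 0.325, spanned those at 0 h.

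**Figure D4:**
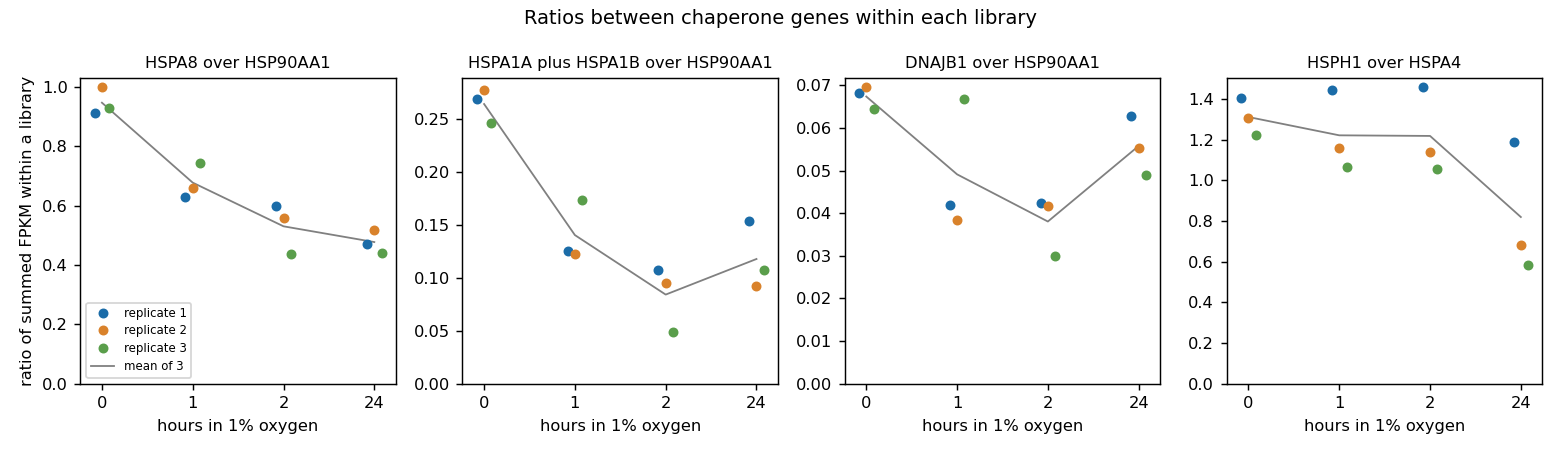
Ratio of summed FPKM between chaperone genes within each library (y axes, from 0) against hours in 1% oxygen (x axis, time points evenly spaced), with 1 colour per replicate number and a line through the means of 3 libraries. HSPA8 over HSP90AA1 went from a mean of 0.947 at 0 h to 0.531 at 2 h and then 0.478 at 24 h, while HSPH1 over HSPA4 was 1.22 at 2 h and then 0.820 at 24 h.

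At 0 h HSP90AB1, HSP90AA1 and HSPA8 were the most abundant members per length, at mean FPKM of 2784, 2437 and 2303, and neighbours in this order overlapped between libraries. HSPA1B at 386 came next, overlapping with DNAJA1 at 332, and HSPA8P5 at 37.6 was the lowest. At 24 h HSP90AB1 (1394), HSP90AA1 (1114) and HSPA8 (534) still led and no longer overlapped with each other. DNAJA1, HSPA1B, HSPA4, DNAJB1, HSPA1A and HSPH1 followed between 121 and 51.9, each overlapping with the next.

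Of the 101 transcripts of the members, 48 passed the filter (FPKM above 0.5 in at least 3 libraries), and 32 of these fell and 1 rose at 24 h, where 15.2% of all 64396 transcripts tested fell and 11.9% rose. The 1 that rose is 2.08% of the 48. Each gene's leading transcript fell. HSPA8 was spread over 3 main transcripts. ENST00000227378 was at 1616, 1521 and 1372 FPKM at 0 h and 366, 400.4 and 268 at 24 h, ENST00000534624, from the start upstream, at 350.4, 254 and 305 and 53.6, 63.9 and 54.9, and the short ENST00000533238, with no defined coding sequence, at 427, 415 and 409 and 109, 122 and 95.3. Their log2 fold changes were -2.14, -2.38 and -1.94 (limma adjusted p = 3.14e-05, 8.92e-06 and 0.000132). The leading one held 65.2 ± 2.25% of HSPA8 at 0 h and 64.2 ± 3.30% at 24 h (two-sided exact permutation test, p = 0.7).

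The transcript that rose was a 315-base model on the strand opposite HSPA8, at 0.746, 0.765 and 1.62 FPKM at 0 h and 7.01, 6.83 and 5.84 at 24 h (log2 fold change 2.24, limma adjusted p = 0.000986), with no overlap between the groups. The libraries keep strand. It was named after its values were seen, and at 24 h its mean of 6.56 FPKM compares with 534 for HSPA8 in sum. In HSPH1 the leading ENST00000320027 fell from 167, 140.4 and 136 to 46.7, 29.0 and 26.4 FPKM (log2 fold change -2.14, limma adjusted p = 8.26e-05). A second coding transcript, ENST00000380405, stood at 2.26, 0.00203 and 0.0576 at 0 h and 9.92, 6.05 and 2.498 at 24 h, a difference that did not pass (2.68, SE 1.18, adjusted p = 0.118). The leading share of HSPH1 was 80.1, 80.6 and 83.0% at 0 h and 61.0, 64.4 and 77.8% at 24 h (two-sided exact permutation test, p = 0.1, the smallest possible), lower in every 24 h library.

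In DNAJA1 the share of the leading transcript was lower in every 24 h library, at 60.1 ± 1.18% at 0 h and 54.98 ± 2.24% at 24 h (SD, n = 3, exact permutation p = 0.1), with ENST00000544625 as its other main transcript (log2 fold change -1.32 against -1.61 for the leading one, limma adjusted p = 0.00283 and 0.000419). In HSPA4 the coding transcript ENST00000304858 fell by 1.25 on the log2 scale (adjusted p = 1.66e-05), whereas the retained-intron transcript ENST00000514825 was at 26.4, 15.1 and 12.1 FPKM at 0 h and 9.87, 14.3 and 7.26 at 24 h (adjusted p = 0.218), with overlap. The leading share of HSPA4 was 86.8 ± 4.5% and 80.4 ± 8.94% (exact permutation p = 0.4). HSP90AB1 moved from 99.2 ± 0.0748% to 99.6 ± 0.103% and HSPA1A from 79.5 ± 1.68% to 82.5 ± 0.861% (exact permutation p = 0.1 in each), whereas HSPA1B, HSP90AA1 and DNAJB1 gave p = 0.6, 0.2 and 0.6. Over these 10 shares tested between 0 h and 24 h, 4 reached the smallest possible p, and the lowest p adjusted over them was 0.25. HSPA1A's second transcript, ENST00000458062, and HSPH1's ENST00000429785 also fell (-2.51 and -1.73, limma adjusted p = 0.000126 and 0.0136).

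Around the members, and with HSF1, HSBP1 and the cochaperones that rose named after their values were seen, 2 of the 4 heat shock factors and regulators tested rose at 24 h and none fell in the values as deposited, whereas under both TPM scalings HSBP1 fell. HSF1 was at 52.1 ± 3.07 FPKM at 0 h, 42.8 ± 2.00 at 2 h and then 54.3 ± 7.39 at 24 h (log2 fold change 0.05 at 24 h, limma adjusted p = 0.692), and turned to -0.798 with TPM over all transcripts (0.133). HSF2 rose at 2 h (0.565, limma adjusted p = 0.0447) and at 24 h (0.34, adjusted p = 0.0146), and HSF4 fell at 2 h (-0.935, adjusted p = 0.0394) and rose at 24 h, from 3.91 ± 0.462 to 12.3 ± 0.599 FPKM (1.55, adjusted p = 1.02e-05). The 2 h calls of HSF2 and HSF4 are near the threshold and were lost when 1 library was left out in 10 and 8 of 12 cases, each 0 h and each 2 h library among them (highest adjusted p 0.23 and 0.205), while the log2 fold changes ran from 0.533 to 0.607 for HSF2 and from -0.994 to -0.848 for HSF4. Both calls were also lost with no filter on low values and with the filter of the study. The 6 libraries compared alone, TPM over transcripts of at least 300 bases and class code = alone (HSF4 at -1.57, limma adjusted p = 0.0605) ended them too. Without the variance trend the call of HSF2 was lost (limma adjusted p = 0.0652). At 2 h, TPM over all transcripts put HSF2 at -0.464 (limma adjusted p = 0.294) and HSF4 at -1.46 (0.00526). At 24 h with the same TPM HSF2 reversed to -0.47 and HSF4, at 0.675, no longer passed (adjusted p = 0.358 and 0.102), and when TPM took in only transcripts from 300 bases HSF2 was at 0.251 (limma adjusted p = 0.0652). The factor HSBP1, which binds HSF1, was at -0.28 at 24 h (limma adjusted p = 0.0817), at -1.15 with TPM over all transcripts (0.0381), at -0.376 with TPM from 300 bases (0.0197) and at -0.249 with median-of-ratios scaling (0.119).

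Of 20 HSP70 cochaperones 14 fell and 1 rose at 24 h, with a median log2 fold change of -0.82. BAG2, a nucleotide exchange factor, went from 59.5 ± 7.72 to 19.4 ± 0.467 FPKM (-1.59, limma adjusted p = 1.35e-05), and DNAJC9 from 61.2 ± 2.86 to 17.4 ± 1.08 (-1.78, adjusted p = 1.1e-07). The 1 that rose was DNAJB2 (1.34, adjusted p = 1.26e-06), a J-domain protein that passes clients to the proteasome, whose value with TPM over all transcripts was 0.475 (adjusted p = 0.35). Of 16 HSP90 cochaperones 13 fell and 3 rose (median -1.002). CHORDC1 went from 135 ± 11.9 to 43.5 ± 10.5 FPKM (-1.64, adjusted p = 1.53e-05) and CACYBP from 182 ± 19.6 to 62.7 ± 10.6 (-1.53, adjusted p = 5.59e-06). UNC45A and PIH1D1 were among those that rose (0.548 and 0.492, adjusted p = 0.00349 and 0.00151), and with TPM over all transcripts they reversed to -0.309 and -0.368 (adjusted p = 0.575 and 0.51).

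The chaperonin TRiC and its partner prefoldin, which fold actin and tubulin, had 12 of 14 genes that fell and none that rose (median -0.78, CCT5 -1.22 and CCT2 -1.21, limma adjusted p = 1.01e-05 and 2e-06). Of 10 mitochondrial chaperones 8 fell (median -0.51), HSPE1 (-1.71) and HSPD1 (-1.0) among them (adjusted p = 2.64e-06 and 1.34e-05). Of 14 chaperones of the endoplasmic reticulum 6 fell and 1, DNAJB9, rose (median -0.28), with SDF2L1 at -1.25 and DNAJC10 at -1.02 (adjusted p = 8.37e-06 and 0.00504). On the scale of TPM over all transcripts 8 of the 14 fell, against 40.6% of all gene names, and none rose, DNAJB9 being at 0.0874 (limma adjusted p = 0.867). Of 5 genes tested in a list of small heat shock proteins and further HSP70 genes, 2 fell, HSPB1 by 0.59 and HSPB11 by 0.64 (adjusted p = 0.00632 and 0.00176). HSPB11 is in this list by its symbol alone, and HSPB8, HSPA2 and HSPA13 did not pass. Over all gene names 30.0% fell and 25.1% rose at 24 h. At 1 h none of the genes in these lists passed, and at 2 h HSF2 and HSF4 were the 2 among these chaperone lists that did. On the scale of TPM over all transcripts, where the median of all names was -0.667, the list medians were -1.66 for the HSP70 cochaperones, -1.859 for the HSP90 cochaperones, -1.645 for TRiC and prefoldin, -1.311 for the mitochondrial and -1.136 for the endoplasmic reticulum chaperones, -0.763 for the small heat shock proteins and further HSP70 genes, and -0.633 for the heat shock factors and their regulators, which reversed in sign. All 12 genes of a list of hypoxia-inducible genes rose at 24 h (median 3.23), NDRG1 by 5.34 and ANKRD37 by 5.45, and 11 of 12 with TPM over all transcripts, against 3.40% of all gene names, where LDHA was at 0.842 (limma adjusted p = 0.162).

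**Figure D5:**
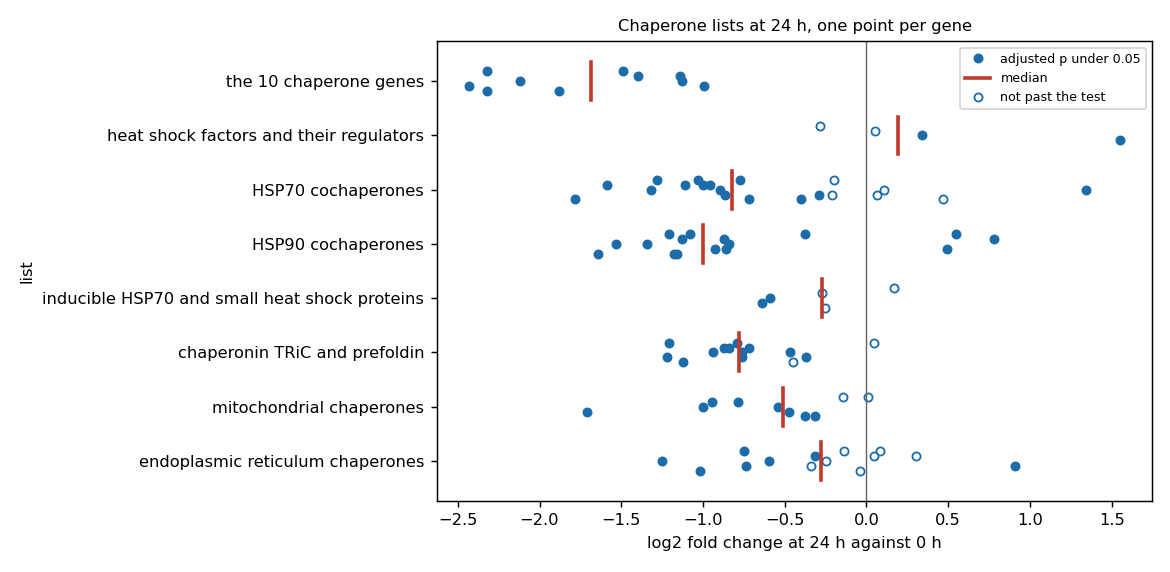
Log2 fold change at 24 h against 0 h (x axis) of each tested gene of 7 chaperone lists and of the 10 genes described here (y axis, points spread vertically for legibility), filled where limma's adjusted p was under 0.05, with a red bar at the median of each list. The medians run from -1.68 for the 10 genes to 0.20 for the heat shock factors and their regulators as deposited, and with TPM over all transcripts the latter turned to -0.633.

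Scaling bears on these values. Transcripts under 300 bases made up 57.0% to 87.6% of the FPKM of each library, 57.0% to 70.4% at 0 h, 74.5% to 85.9% at 2 h and then 64.9% to 87.6% at 24 h, and no member has a transcript that short. Rescaling every library to an equal sum (TPM) therefore moved the median over all gene names to -0.53 at 1 h, -0.88 at 2 h and then -0.67 at 24 h. Relative to that median the members were at -0.45, -0.86 and -1.86 in the median, with all 10 below it at each time, against -0.33, -0.64 and -1.64 in the values as deposited, where HSPA4 and HSP90AA1 lay above it at 1 h and HSP90AA1 at 2 h. Under this TPM 9 of 10 members fell at 2 h, where 52.8% of all gene names fell, and 1 of 10, HSPH1, fell between 2 and 24 h, where 1.40% did. TPM over transcripts of at least 300 bases put the median member at -0.33, -0.64 and -1.65 relative to the median of all names. With median-of-ratios scaling it was at -0.33, -0.64 and -1.63, so both stayed near the values as deposited at 1, 2 and 24 h. All 10 passed at 24 h in each alternative run. The lowest 2 h library of the HSP70 genes and of DNAJB1, replicate 3, held 85.9% of its FPKM in short transcripts, against 85.2% in replicate 1, the highest 2 h library of these genes except HSPA8P5, and 74.5% in replicate 2. The part of this in the 2 h values was not tested.

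The line's markers matched its label in part: EPCAM (214 to 354 FPKM), KRT8, KRT18, KRT19, CDH1 and CDX2 were present in all libraries, and VIL1 and CDX1 stayed at or under 0.0481. The lists for other cell types summed to at most 0.199 FPKM for leukocytes and 0.117 for endothelial cells. For erythroid cells they summed to 1.38 to 7.83, from HBA1 and HBA2 with HBB at 0. The fibroblast list was at 1.82 to 2.16 at 0 h and 5.77 to 8.83 at 24 h, from COL1A1, while COL1A2, COL3A1, DCN and LUM stayed at or under 0.0357. In bulk samples such as these, fewer cells of a type and less RNA per cell cannot be told apart.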

How the data were processed

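Poly(A) RNA of HCT116 cells was sequenced as strand-specific paired reads of 100 bases in 12 libraries, 3 at each of 4 time points, described as biological replicates. Per the labels and the methods of the study, reads were aligned to hg19 (GRCh37) with MapSplice after base calling with CASAVA 1.8.2, and transcripts were assembled and quantified with Cufflinks. The authors deposited 1 table of FPKM per transcript, with no read counts, so the depth behind each value was not analysed here and no counting interval is given. Columns were matched to samples through the sample descriptions.

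FPKM was summed per gene name. Gene names above 0.5 FPKM in at least 3 libraries were tested with limma 3.58.1 (lmFit, eBayes with trend) in R 4.3.3 on log2(FPKM + 0.5), with Benjamini-Hochberg adjustment. Transcripts were treated alike. Shares were compared by a two-sided exact permutation test. The scripts were tested on simulated data. Named were all 10 members, the 2 genes of each list with the largest change at 24 h, the 3 names most correlated with each member, and transcripts with at least 10% of a member's FPKM. The members, lists and tests were chosen with earlier results of these data known. Promoter windows and transcript sequences came from GRCh37 with GENCODE release 44. Libraries with the same replicate number were taken as paired where every correlation of their deviations from the group means exceeded 0.1, which held between 0 and 2 h (0.264, 0.153 and 0.324) and between 1 and 2 h (0.372, 0.132 and 0.431), which were not compared. Alternatives covered scaling, pseudocount, filters, transcript class and length, summing by locus, near-identical copies, the replicate block, the variance trend and leaving out each library. The values of 1 gene of the HSP90 cochaperone list are not reported here.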

Additional observations from a re-analysis of the deposited data

Results flagged for a closer look

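For 8 of the 10 genes the effect against 0 h differed between 24 h and 2 h in the values as deposited, by limma's test of 24 h against 2 h, which is the test of that difference because both are set against the same 0 h libraries. The log2 difference between the effects was -1.69 for HSPH1, -1.31 for HSPA8, -1.17 for HSP90AA1, -1.07 for HSPA4, -0.997 for HSPA8P5, -0.97 for DNAJA1, -0.73 for HSP90AB1 and -0.61 for DNAJB1. For HSPA1A and HSPA1B it was -0.63 and -0.65 and did not pass, although both did without replicate 3 at 2 h (limma adjusted p = 0.0029 and 0.0023) or without replicate 1 at 24 h (0.038 and 0.04). With TPM over all transcripts 7 of the 8 no longer passed, HSPH1 alone keeping an adjusted p under 0.05 (limma adjusted p = 0.036). The differences kept their sign under that TPM, at -1.44 for HSPH1, -1.09 for HSPA8, -0.95 for HSP90AA1, -0.84 for HSPA4, -0.74 for DNAJA1, -0.64 for HSPA8P5, -0.51 for HSP90AB1 and -0.38 for DNAJB1. HSPA8P5 and DNAJB1 also lost the call without replicate 1 or 2 at 2 h or replicate 3 at 24 h, and DNAJB1 without replicate 2 at 24 h.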

How the results depend on the processing

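At 24 h against 0 h, 270 of 270 values of the members under the alternatives kept their direction and passed. At 1 h 261 of 270 kept direction and side of the threshold, at 2 h 230 and between 2 and 24 h 245. Of the transcript values 321 of 323 did so, and of the shares 79 of 80. With TPM over all transcripts, 32 gene names passed the stricter call and 61 changed at 1 h, 300 and 9063 at 2 h (9 members changed and 4 passed the stricter call), and 640 and 1473 between 2 and 24 h (1 and 0 members). As deposited these were 1 and 1, 3 and 52, and 2506 and 8584 gene names. Under that TPM 581 names rose and 6933 fell at 24 h, against 4292 and 5132. HSPA4 and HSP90AA1 turned to -0.617 and -0.605 at 1 h and HSP90AA1 to -1.05 at 2 h. TPM over transcripts of at least 300 bases gave 31 changed names at 2 h. At 1 h no filter, transcripts of at least 300 bases, only the 6 libraries compared and the replicate block each left 0 strict calls, and changed names were 0 with at least 300 bases and with 6 libraries, and 2 with class code = alone. At 2 h strict calls were 6 with a pseudocount of 0.1, 0 with no filter, 5 with the filter of the study, 7 with at least 300 bases, 0 with 6 libraries and 1 without the variance trend. Changed names at 2 h were 15 with no filter, 33 with class code = and 30 without the trend. Changed members at 2 h were 0 with no filter, by locus, with 6 libraries and without the trend, and 1 with class code =. The share of the leading DNAJB1 transcript moved by 0.333 percentage points with the filter of the study, against -0.78. The cause of these shifts was not tested.

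Leaving out 1 library at a time gave 0 to 1 strict calls and 1 to 2 changed names at 1 h, 0 to 6 and 1 to 84 at 2 h with 0 to 3 members changed, and 4 to 7 members in the stricter call between 2 and 24 h, where 6 to 10 changed. Over all gene names that last step gave 2151 to 2789 strict calls and 7232 to 8550 changed names. At 1 h HSPA4 ran from -0.019 to 0.064, HSPH1 from -0.231 to 0.04 and HSP90AA1 from -0.072 to 0.113, and at 2 h HSP90AA1 from -0.052 to 0.122.

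Blocking on the replicate number in the fit to all 12 libraries, 261 gene names and 4 members changed at 2 h. HSPA1A and HSPA1B passed between 2 and 24 h (limma adjusted p = 0.049 and 0.043, over all alternatives 0.0029 to 0.69 and 0.0023 to 0.67), and the transcript ENST00000380405 of HSPH1 passed at 24 h (limma adjusted p = 0.0086, over all alternatives 0.0086 to 0.27). The pairs between 0 and 1 h, between 0 and 24 h and between 2 and 24 h did not all correlate above 0.1. Over all time points 10 of 12 libraries correlated best with their own number, a hint from the data and not the design. Without read counts the depth behind each value, low ones included, was not analysed.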
